A study of Rattus norvegicus with 16 samples.

Results

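The genes described here are the collagen chain genes, taken as every row of the deposited count table whose symbol consists of Col, a type number, the letter a and a chain number. The rule found 26 of 14476 genes, and all 26 passed the filter on low counts. The expression data come from 16 tissue samples of 4 Sprague-Dawley rats. Each rat had plated osteotomies on both sides: 1 osteotomy held a polymethyl methacrylate (PMMA) cement spacer, as in the Masquelet technique for bone defects, and the contralateral 1 stayed empty. After 4 weeks, a pair of tissues was taken on each side, giving 4 groups with 1 library per rat. The induced membrane (IM) is the sheath that forms around the spacer, and PMMA bone is the bone next to the spacer. PFNU is the pre-fibrous non-union tissue of the empty osteotomy, and BNED is the bone next to the empty defect. The labels name no genetic change. Every rat carried both conditions, so each tissue of an empty defect came from an animal with a spacer on its other side.

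Most collagens are secreted proteins whose chains wind around each other into a helix and then assemble outside the cell. Fibrillar collagens form the fibres of bone, skin and cartilage, FACIT collagens sit on the surface of those fibres, collagen IV forms the sheets of basement membranes, and the multiplexins XV and XVIII lie in basement membrane zones around vessels and other tissues. In bone, collagen I is the main organic matrix. Repair tissue also holds much collagen III, and cartilage is built from collagens II, IX and XI. By class, the 26 genes were 9 fibrillar chains (Col1a1, Col2a1, Col3a1, Col5a1, Col5a2, Col5a3, Col11a1, Col11a2 and Col27a1) and 4 FACIT chains (Col9a1, Col9a2, Col14a1 and Col16a1). The others were 3 basement membrane chains (Col4a1, Col4a3 and Col4a4), 2 multiplexins (Col15a1 and Col18a1), 2 beaded filament chains (Col6a2 and Col6a4), the anchoring fibril chain Col7a1, the short-chain network collagen Col8a1, 3 transmembrane collagens (Col13a1, Col17a1 and Col23a1) and Col26a1. Among the other chains of these classes, Col1a2, Col4a2, Col6a1, Col6a3, Col10a1, Col12a1, Col22a1 and Col24a1 were not analysed here.

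Libraries held 40472228 to 76815879 counts. The 26 genes together took 6.86 to 12.2% of the counts of a PMMA bone library, 2.90 to 6.31% in BNED, 1.72 to 8.61% in IM and 1.83 to 4.40% in PFNU. The tissues were mixtures, as lists of marker genes of other cell types showed. Erythroid markers (15 of 18 listed genes measured) took 4.58 to 8.06% of counts in BNED and 0.482 to 1.46% in PMMA bone of rats 2 to 4, but 8.68% in PMMA bone of rat 1. Skeletal muscle markers (18 of 20) took 2.47 to 22.6% in IM and 6.96 to 17.0% in PFNU, against at most 4.62% in bone. Markers of osteoblasts and osteocytes (11 of 12), the cells that make bone matrix, took 1.45 to 1.80% in PMMA bone and 0.504 to 1.25% in BNED. In the defect tissues the same markers took 0.0687 to 0.681%, with the highest shares in rat 3 of both IM and PFNU. In such bulk samples, fewer cells of a type and less RNA per cell cannot be told apart.

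In PMMA bone against BNED, 9 of the 26 genes rose and none fell: Col18a1, Col16a1, Col15a1, Col6a2, Col3a1, Col14a1, Col4a1, Col5a3 and Col7a1. That is 34.6% of the collagen genes, where 3.51% of all 12857 genes tested were called higher and 1.40% lower. Levels are given as CPM, the counts divided by the scaled library size and put on a common base, and a log2 fold change of 1 is a doubling. Levels are not compared between genes, since they are not per transcript length. The threshold for a call was 0.05 on the p of edgeR's quasi-likelihood F-test after Benjamini-Hochberg adjustment over all genes tested, the source of each adjusted p of a gene unless another tool is named. A further 15 collagen genes had a positive log2 fold change without passing the test, where 49.3% of all genes had one, and the median over the 26 was 1.42, against -0.01 over all genes tested. The libraries of PMMA bone lay above those of BNED without overlap for 11 collagen genes, where 12.0% of all genes did so. With PMMA bone of rat 2, 3 or 4 or BNED of rat 1 or 3 left out, 0 genes of the whole table were called, collagens included. Without BNED of rat 2 there were 5 collagen calls (Col18a1, Col16a1, Col15a1, Col14a1 and Col7a1), without BNED of rat 4 there were 3 (Col18a1, Col16a1 and Col15a1), and without PMMA bone of rat 1 there were 11. These 3 fits called 2.09, 2.70 and 19.9% of all genes. Over these 8 fits the median log2 fold change of the 26 genes was 1.13 to 1.63, and 12 to 16 of them had an unadjusted p under 0.05, against 13 with all libraries and 24.3% of all genes.

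In the defect itself, no collagen gene passed the test between IM and PFNU, a comparison in which 0.863% of all genes were called. The median log2 fold change of the 26 genes was 0.75, against 0.01 over all genes tested. The values were positive for 20 of them, where 51.2% of all genes were, and 9 had an unadjusted p under 0.05, where 15.5% of all genes did. With a library left out, 2 to 9 collagen genes had such a p. The fewest came without PFNU of rat 4, where 1502 of 12975 genes had one. With the rat as a block, 5 collagen genes did. IM lay above PFNU without overlap for Col5a3, Col14a1 and Col7a1, while 3.96% of all genes did so. DESeq2 called Col5a3 and Col2a1 among 4.14% of all genes, and limma-voom called 0 genes of the whole table. The difference between the spacer's effect in the defect and in bone, tested as an interaction in edgeR, was called for none of the 26 genes and for 0% of all genes. DESeq2 called no collagen gene there and limma-voom called 2. In that interaction 3 collagen genes had an unadjusted p under 0.05. They are 11.5% of the 26, close to the 8.94% of all genes that had one. These were Col15a1, Col18a1 and Col4a1. The value was negative for 21 of the 26, with a median of -0.58, while 51.0% of all genes had a positive one.

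**Figure D1:**
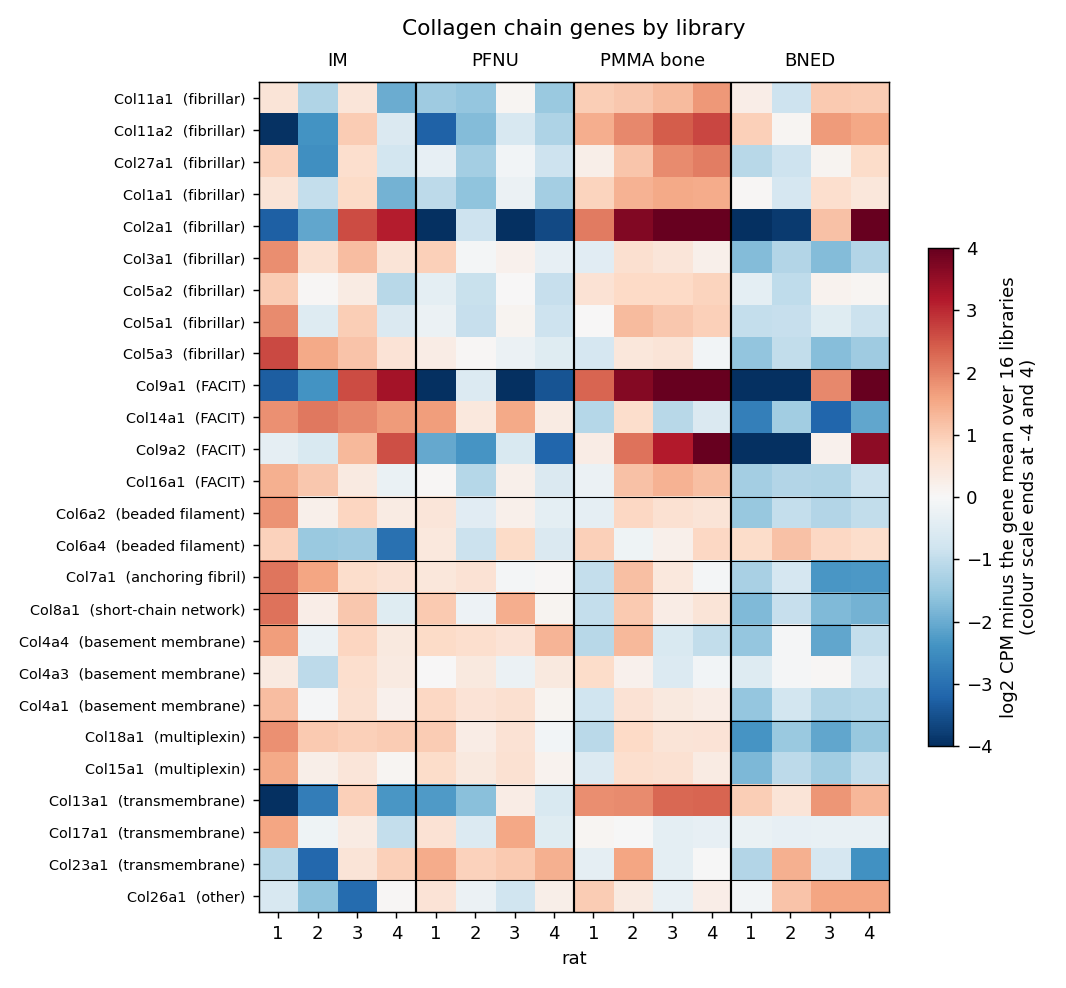
Level of each of the 26 collagen genes in each of the 16 libraries, as log2 CPM minus the gene's mean over all libraries, with genes grouped by class and rats 1 to 4 within each tissue. Col2a1, Col9a1 and Col9a2 reached both ends of the colour scale, while Col3a1, Col4a1, Col15a1 and Col18a1 were below their mean in all 4 BNED libraries.

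Col1a1, a chain of the collagen I of bone, was highest next to the spacer. It was at 50572, 72099, 79289 and 77473 CPM in PMMA bone of rats 1 to 4 and at 28305, 17386, 43824 and 37297 CPM in BNED. Every PMMA bone library exceeded every BNED library, with a log2 fold change of 1.14 (SE 0.56) that did not pass the test (adjusted p = 0.226). It passed with only the libraries compared (adjusted p = 0.0461) and in limma-voom (adjusted p = 0.00695). These fits called 14.1 and 48.6% of all genes. In the defect tissues Col1a1 was at 39680, 14323, 46919 and 7363 CPM in IM and at 13315, 8923, 23116 and 10744 CPM in PFNU. These ranges overlapped, and IM libraries differed from each other by up to 6.37-fold (log2 fold change 0.95, SE 0.56, adjusted p = 0.447). Rat 3 had the highest Col1a1 of both IM and PFNU, and these were also the libraries with the largest share of osteoblast and osteocyte markers, 0.545 and 0.681% of counts; the part of those markers in the Col1a1 level was not tested. Against the bone of the same side, Col1a1 had log2 fold changes of -1.37 in IM (adjusted p = 0.0903) and -1.18 in PFNU (adjusted p = 0.121). DESeq2 called both (adjusted p = 0.0181 and 0.0390), among 26.5 and 34.1% of all genes. Limma-voom called PFNU against BNED (adjusted p = 0.00278), among 52.3% of all genes. IM against PMMA bone was also called in edgeR without IM of rat 3 (adjusted p = 0.0471).

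Col3a1, the chain of collagen III, was highest in IM and lowest in BNED. IM libraries held 25895, 11134, 16748 and 10186 CPM and PFNU libraries 13913, 6734, 8022 and 5671 CPM. In bone, Col3a1 was at 5184, 11201, 9993 and 8274 CPM next to the spacer and at 2157, 3202, 2148 and 3141 CPM next to the empty defect. The BNED libraries were thus the lowest of all 16. Col3a1 rose in PMMA bone over BNED (log2 fold change 1.70, SE 0.41, adjusted p = 0.0338) and in PFNU over BNED (1.69, SE 0.41, adjusted p = 0.00665). The call in bone was kept in 1 of the 8 fits that left out a library, and with the rat as a block the adjusted p was 0.0530. The call of PFNU over BNED was kept in 8 of 8. IM against PFNU (0.90, SE 0.40, adjusted p = 0.297) and IM against PMMA bone (0.88, SE 0.40, adjusted p = 0.119) were not called.

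The ratio of Col3a1 to Col1a1 counts within a library, which does not depend on library scaling, set defect tissue apart from bone. It was 0.653, 0.777, 0.357 and 1.38 in IM and 1.04, 0.755, 0.347 and 0.528 in PFNU. In bone it was 0.103, 0.155, 0.126 and 0.107 next to the spacer and 0.0762, 0.184, 0.0490 and 0.0842 next to the empty defect. Each defect tissue library exceeded each bone library. The mean log2 ratio was 2.55 higher in IM than in PMMA bone and 2.82 higher in PFNU than in BNED (exact two-sided permutation test, p = 0.0286 each, the smallest value that 4 against 4 libraries can give, and 0.0571 after adjustment over the 4 ratio tests). Paired within rats, an exact sign-flip test gave p = 0.125 for each, which is the smallest value possible with 4 rats. Between IM and PFNU the mean log2 ratio differed by 0.20 (exact permutation p = 0.714, adjusted 0.714), and between PMMA bone and BNED by 0.47 (exact permutation p = 0.314, adjusted 0.419). The difference between IM and PFNU was smaller than the SD among libraries of IM (0.80) or PFNU (0.68, n = 4 each). That between PMMA bone and BNED was smaller than the SD of BNED (0.79) but larger than that of PMMA bone (0.27). Without IM of rat 4 or PFNU of rat 3, the difference between IM and PFNU changed sign, to -0.12 and -0.08. Without BNED of rat 2, the highest of its group, the adjusted exact permutation p was 0.0381 for the difference between PMMA bone and BNED and likewise for that between PFNU and BNED. For PFNU against BNED the unadjusted p stayed at 0.0286, also the smallest value for 3 against 4 libraries, and only its adjustment changed.

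Collagen V chains, which start collagen I fibres and set their width, differed from chain to chain. Col5a1 was at 572, 1379, 1207 and 1104 CPM in PMMA bone and at 293, 301, 403 and 311 CPM in BNED. The groups did not overlap, but the log2 fold change of 1.71 (SE 0.48) missed the threshold with an adjusted p of 0.0529. It passed without PMMA bone of rat 1 (adjusted p = 0.0152), with only the libraries compared (0.0216), in DESeq2 (0.00613) and in limma-voom (4.18e-05). These fits called 19.9, 14.1, 11.6 and 48.6% of all genes. In IM, Col5a1 was at 2118, 399, 1129 and 377 CPM, and in PFNU at 487, 302, 610 and 321 CPM (log2 fold change 1.23, SE 0.47, adjusted p = 0.226).

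Col5a3, the rarest of the collagen V chains in tissue, was the collagen gene closest to a call in the defect. Its levels in IM were 1436, 650, 501 and 334 CPM, and in PFNU 282, 237, 193 and 163 CPM. Every IM library lay above every PFNU library, by a fitted 3.34-fold (log2 fold change 1.74, SE 0.39, adjusted p = 0.0528). The adjusted p was 0.0413 without IM of rat 3, 0.0221 without IM of rat 4 and 0.00160 in DESeq2. These fits called 1.51, 1.88 and 4.14% of all genes. Col5a3 was not called in the other 6 fits that left out a library or with the rat as a block. Limma-voom and the fit of only the libraries compared called 0 genes of the whole table. Bone held 142, 315, 328 and 210 CPM next to the spacer and 77.1, 116, 69.3 and 85.5 CPM next to the empty defect. Col5a3 rose in PMMA bone over BNED (1.52, SE 0.39, adjusted p = 0.0397, called in 1 of 8 fits that left out a library) and in PFNU over BNED (1.33, SE 0.39, adjusted p = 0.0191, called in 5 of 8: not without PFNU of rat 1 or BNED of rat 1 or 3). It also rose in IM over PMMA bone (1.55, SE 0.39, adjusted p = 0.0128, called in 8 of 8, but not with only the libraries of those tissues). Counts of Col5a3 per count of Col5a1 were 0.444 to 1.63 in IM, 0.316 to 0.784 in PFNU, 0.190 to 0.272 in PMMA bone and 0.172 to 0.384 in BNED. These ratios, like the other ratios below, were chosen after their values were seen and were not tested. Col5a2 and the fibrillar collagen Col27a1 were not called in any comparison in edgeR with all 16 libraries. In bone their log2 fold changes were 0.99 for Col5a2 (SE 0.38, adjusted p = 0.137) and 1.56 for Col27a1 (SE 0.61, adjusted p = 0.138). Limma-voom called both there (adjusted p = 0.00333 and 0.000964), among 48.6% of all genes. Col5a2 was also called there with only the libraries compared (adjusted p = 0.0343). Without IM of rat 1, Col27a1 was called lower in IM against PMMA bone (adjusted p = 0.0397).

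**Figure D2:**
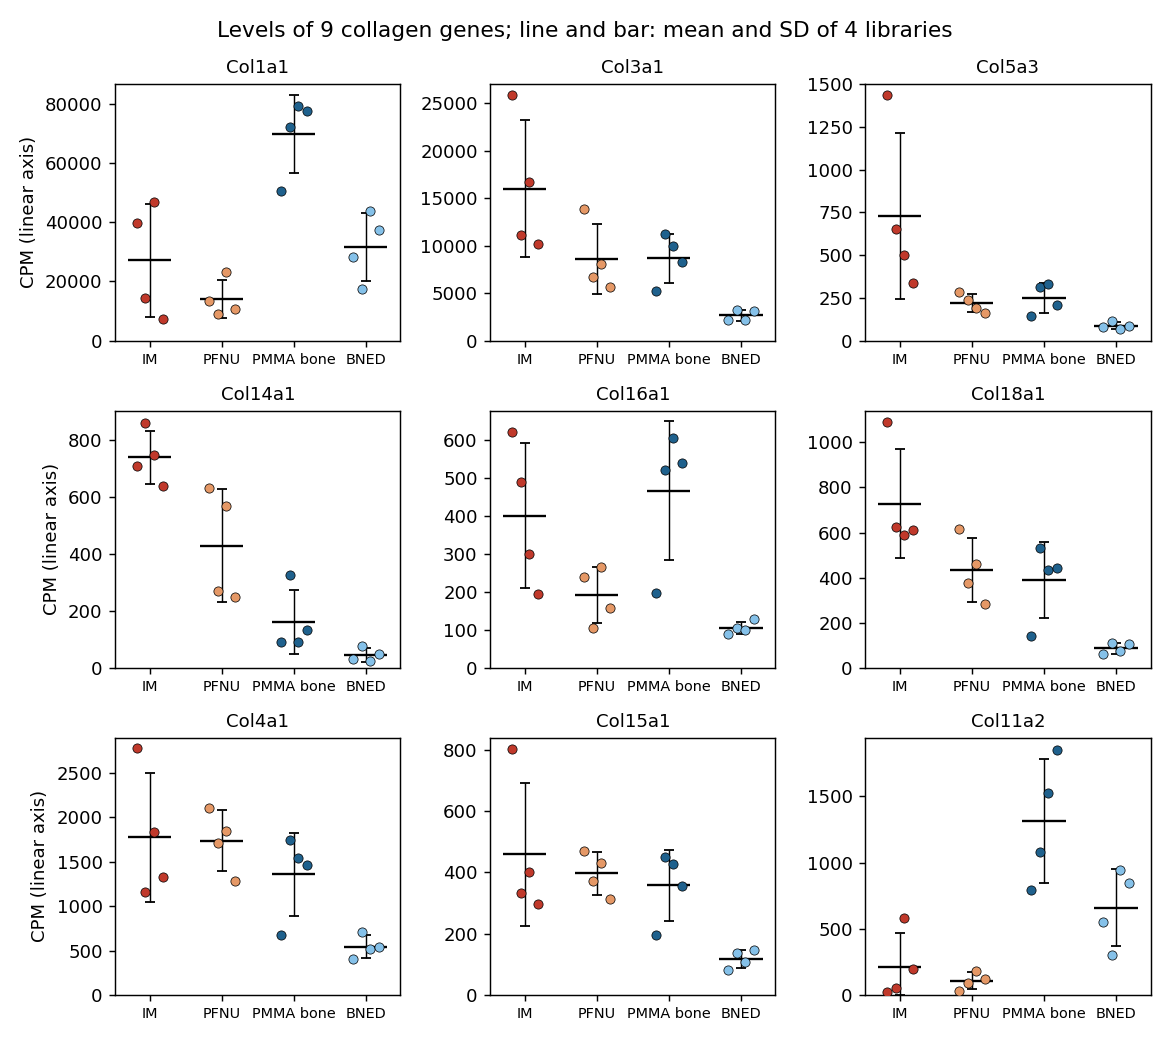
CPM of 9 collagen genes in the 4 tissues, with 1 point per library on linear axes and the mean and SD of 4 libraries as lines. Col1a1 and Col11a2 were highest in PMMA bone, while Col3a1, Col5a3, Col14a1 and Col18a1 had their highest library in IM and their lowest libraries in BNED.

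Among the FACIT collagens, Col14a1, found on the fibres of skin, tendon and other soft tissue, was higher in each defect tissue than in the bone of its side. It was at 709, 862, 748 and 641 CPM in IM and at 632, 268, 568 and 249 CPM in PFNU. Bone held 90.2, 326, 91.5 and 133 CPM next to the spacer and 29.6, 75.9, 22.2 and 47.3 CPM next to the empty defect. The groups did not overlap in any of the 4 pairwise comparisons. Col14a1 rose in PFNU over BNED by 9.82-fold (log2 fold change 3.30, SE 0.50, adjusted p = 0.000385) and in IM over PMMA bone by 4.62-fold (2.21, SE 0.48, adjusted p = 0.00594), and both calls were kept in 8 of 8 fits that left out a library. It rose in PMMA bone over BNED (1.87, SE 0.47, adjusted p = 0.0371, called in 2 of 8), and IM against PFNU was not called (0.78, SE 0.46, adjusted p = 0.445). The 4 IM libraries lay within 1.35-fold of each other.

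Col16a1, another FACIT chain, had the highest fold change in bone after Col18a1. PMMA bone held 197, 522, 606 and 539 CPM, and BNED 89.9, 104, 101 and 127 CPM. The BNED libraries were close together, and rat 1 was the lowest of the PMMA bone libraries, as it was for Col3a1, Col5a3, Col6a2, Col15a1 and Col18a1. Col16a1 rose by 4.42-fold (log2 fold change 2.14, SE 0.40, adjusted p = 0.0196, called in 3 of 8 fits that left out a library). In the defect it was at 621, 489, 298 and 193 CPM in IM and at 239, 105, 267 and 156 CPM in PFNU, higher in IM in 4 of 4 rats but overlapping between groups (1.06, SE 0.39, adjusted p = 0.206). PMMA bone of rat 1, whose levels of these genes lay nearest to BNED, was also the PMMA bone library with 8.68% erythroid counts; the part of the erythroid share in these levels was not tested. Without that library, the log2 fold changes of the 9 called genes in bone were larger for each of them, and 11 genes were called, the added ones being Col5a1 and Col8a1.

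Col6a2, a chain of the beaded filaments that link cells to the fibres around them, was at 978, 2237, 1914 and 1800 CPM in PMMA bone and at 437, 641, 562 and 628 CPM in BNED. It rose in PMMA bone (log2 fold change 1.61, SE 0.37, adjusted p = 0.0313, called in 1 of 8 fits that left out a library). IM held 4388, 1458, 2257 and 1585 CPM and PFNU 1753, 907, 1440 and 951 CPM. IM was the higher of the pair in each rat, without a call (0.94, SE 0.37, adjusted p = 0.231). Col6a2 rose in PFNU over BNED (1.16, SE 0.37, adjusted p = 0.0286), a call lost without PFNU of rat 1 or 3 or BNED of rat 1, 3 or 4, and with the rat as a block (adjusted p = 0.0562).

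Col7a1, the anchoring fibril chain that ties epithelial basement membranes to the tissue below, was low throughout. It was at 2.06, 9.20, 5.30 and 3.74 CPM in PMMA bone and at 1.63, 2.51, 0.789 and 0.809 CPM in BNED. The PMMA bone library of rat 1 lay within the BNED range, and the rise (log2 fold change 1.81, SE 0.49, adjusted p = 0.0470) was kept in 2 of 8 fits that left out a library. That call was also lost with DESeq2-type size factors in edgeR, with scaling computed without collagen, muscle and erythroid genes, with no filter on low counts and with only the libraries compared. Col7a1 was at 17.6, 11.8, 6.47 and 5.96 CPM in IM and at 5.43, 5.94, 3.74 and 4.08 CPM in PFNU, without overlap (1.13, SE 0.48, adjusted p = 0.276). It rose in PFNU over BNED (1.73, SE 0.49, adjusted p = 0.0163), a call lost without BNED of rat 3 or 4. Markers of epidermis, where this chain is best known, took at most 0.000235% of counts in any library, with up to 3 of 5 measured genes at 0.

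Col8a1, a network collagen of vessel walls, was at 21.7, 86.7, 52.0 and 59.9 CPM in PMMA bone and at 12.4, 22.4, 12.5 and 11.5 CPM in BNED. Its log2 fold change of 1.90 (SE 0.55) missed the threshold (adjusted p = 0.0570). It passed without PMMA bone of rat 1 (adjusted p = 0.0133), with only the libraries compared (0.0255), in DESeq2 (0.00803) and in limma-voom (0.000245). These fits called 19.9, 14.1, 11.6 and 48.6% of all genes. IM held 192, 50.7, 90.0 and 30.0 CPM and PFNU 86.7, 36.9, 117 and 45.4 CPM. Those groups overlapped widely (0.35, SE 0.52), and without IM of rat 1 the value was -0.33. Col8a1 rose in PFNU over BNED (2.28, SE 0.55, adjusted p = 0.00713, called in 8 of 8 fits that left out a library).

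The basement membrane chain Col4a1 and the multiplexins Col15a1 and Col18a1 are the collagens of vessel and muscle basement membranes, and the C-terminal fragment of Col18a1 is known as endostatin. Col4a1 was at 678, 1750, 1543 and 1460 CPM in PMMA bone and at 407, 711, 517 and 541 CPM in BNED. Only PMMA bone of rat 1 overlapped with BNED. Col15a1 held 195, 450, 427 and 355 CPM in PMMA bone and 80.8, 137, 107 and 145 CPM in BNED. Col18a1 was at 143, 533, 436 and 443 CPM against 58.6, 108, 72.1 and 107 CPM. All 3 genes rose in PMMA bone. Log2 fold changes were 2.17 for Col18a1 (SE 0.38, adjusted p = 0.0174, called in 3 of 8 fits that left out a library), 1.61 for Col15a1 (SE 0.33, adjusted p = 0.0230, called in 3 of 8) and 1.32 for Col4a1 (SE 0.33, adjusted p = 0.0378, called in 1 of 8). With the rat as a block, Col4a1 had an adjusted p of 0.0603.

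In the defect the same 3 genes differed little or overlapped. Col4a1 was at 2778, 1156, 1835 and 1334 CPM in IM and at 2110, 1711, 1845 and 1287 CPM in PFNU, a log2 difference of 0.03 (SE 0.33) with an adjusted p of 0.984. Col15a1 held 802, 333, 400 and 298 CPM in IM and 469, 372, 431 and 312 CPM in PFNU (0.21, SE 0.32, adjusted p = 0.828). IM of rat 1 was the high library for both genes, and without it the log2 fold changes were -0.27 and -0.20. Col18a1 was at 1089, 626, 589 and 609 CPM in IM and at 615, 374, 458 and 282 CPM in PFNU, higher in IM in 4 of 4 rats (0.75, SE 0.37, adjusted p = 0.340). The interaction, the spacer's log2 effect in the defect minus that in bone, was -1.29 for Col4a1 (SE 0.47, adjusted p = 0.462), -1.39 for Col15a1 (SE 0.46, adjusted p = 0.395) and -1.42 for Col18a1 (SE 0.52, adjusted p = 0.466). Limma-voom called it for Col15a1 (adjusted p = 0.0343) and Col4a1 (adjusted p = 0.0429), whereas edgeR and DESeq2 did not. In PFNU over BNED all 3 genes rose, Col18a1 by 2.32 (adjusted p = 0.000654), Col15a1 by 1.76 (adjusted p = 0.00160) and Col4a1 by 1.68 (adjusted p = 0.00227), and these calls were kept in 8 of 8 fits that left out a library.

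Endothelial markers (10 of 10 measured, none at 0 in any library) took 0.0717 to 0.127% of counts in PMMA bone and 0.0628 to 0.0757% in BNED. Of these markers, 4 of the 10 were called higher in PMMA bone, where 3.51% of all genes were. In IM and PFNU the endothelial markers took 0.101 to 0.164 and 0.100 to 0.155%, with none called. Between PFNU and BNED, where Col4a1, Col15a1 and Col18a1 also rose, 9 of the 10 endothelial, 7 of 8 smooth muscle and myofibroblast and 11 of 18 skeletal muscle markers were called higher. Of all genes, 15.0% were called higher there. Smooth muscle and myofibroblast markers (8 of 8, none at 0) had 4 genes called higher in PMMA bone, at 0.0649 to 0.190% against 0.0471 to 0.220% of counts. The part of these cells in the levels of Col4a1, Col15a1 and Col18a1 was not tested.

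Within libraries, Col4a1 and Col15a1 kept nearly the same proportion. Col4a1 had 3.46 to 5.20 counts per count of Col15a1 over the 16 libraries of 4 tissues. The ratio of Col4a1 to Col18a1 spanned 3.88-fold and differed by tissue. It was 1.85 to 3.12 in IM, 3.43 to 4.57 in PFNU, 3.28 to 4.75 in PMMA bone and 5.06 to 7.17 in BNED. IM was thus below PFNU, and PMMA bone below BNED, without overlap. As these genes share a rise in bone but not a fixed proportion, the RefSeq windows from 250 bases before to 50 after their annotated starts are shown, in build GRCr8, with capitals marking the GC box GGGCGG and the CCAAT box CCAAT on either strand.
Col4a1, chr16:84885347-84885646, plus strand: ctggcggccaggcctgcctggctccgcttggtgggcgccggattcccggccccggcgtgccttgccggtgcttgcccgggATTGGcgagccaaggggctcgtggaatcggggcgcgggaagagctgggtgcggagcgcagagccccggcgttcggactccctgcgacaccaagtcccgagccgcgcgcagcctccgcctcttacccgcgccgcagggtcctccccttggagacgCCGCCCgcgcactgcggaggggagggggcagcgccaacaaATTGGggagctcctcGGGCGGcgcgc
Col15a1, chr5:66297296-66297595, plus strand: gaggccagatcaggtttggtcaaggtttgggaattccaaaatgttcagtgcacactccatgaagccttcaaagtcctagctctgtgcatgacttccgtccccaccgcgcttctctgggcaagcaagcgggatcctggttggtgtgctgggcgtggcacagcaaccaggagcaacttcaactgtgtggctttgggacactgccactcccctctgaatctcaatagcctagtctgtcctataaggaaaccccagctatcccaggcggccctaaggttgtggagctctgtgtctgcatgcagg
Col18a1, chr20:11473395-11473694, plus strand: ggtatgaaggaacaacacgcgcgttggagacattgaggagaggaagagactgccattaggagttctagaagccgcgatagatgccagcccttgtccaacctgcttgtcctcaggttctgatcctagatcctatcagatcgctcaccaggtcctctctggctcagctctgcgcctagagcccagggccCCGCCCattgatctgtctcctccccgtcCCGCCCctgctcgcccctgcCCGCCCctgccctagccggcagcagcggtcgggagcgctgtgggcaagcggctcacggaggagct
The window of Col4a1 held 2 GC boxes and 2 CCAAT boxes, that of Col18a1 held 3 GC boxes, and that of Col15a1 held neither word. These words can share letters with each other, and none did in these windows. The start of Col4a2 lies on the opposite strand beside that of Col4a1, so their windows overlap. Over the 21 collagen genes with a window, 57.1% held a GC box and 23.8% a CCAAT box, against 33.1 and 37.5% of all 33469 windows. The median GC content was 62.7% for the collagen genes and 51.7% for all windows. A match is a description of the sequence and not a measured binding site.

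**Figure D3:**
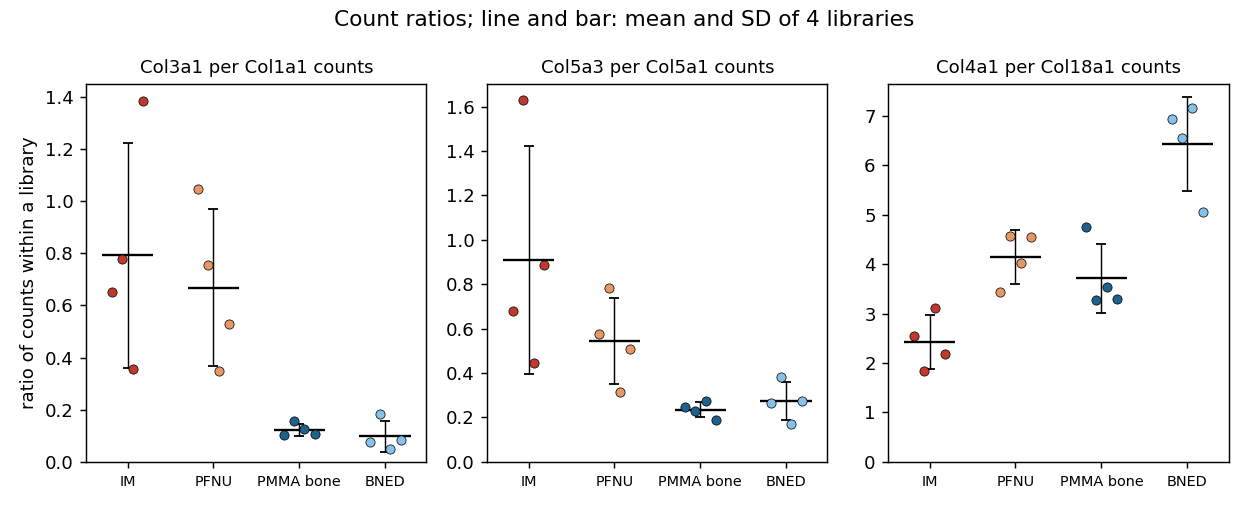
Ratios of the counts of 2 collagen genes within a library for the 4 tissues, with 1 point per library and the mean and SD of 4 libraries as lines. Col3a1 per Col1a1 was at most 0.184 in bone and at least 0.347 in defect tissue, and Col4a1 per Col18a1 was lowest in IM and highest in BNED.

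The cartilage collagens differed widely between rats of the same tissue. Col2a1, the chain of the main cartilage collagen, was at 809, 2487, 4562 and 11186 CPM in PMMA bone and at 9.44, 13.6, 439 and 5149 CPM in BNED. In IM it was at 20.2, 45.6, 1175 and 1703 CPM, and in PFNU at 6.17, 109, 6.38 and 15.7 CPM. Rats 3 and 4 were thus the high libraries of IM, PMMA bone and BNED, but not of PFNU. The span over the 16 libraries was 1814-fold, and 545-fold within BNED. Col9a1, a FACIT chain that coats collagen II fibres, was at 36.0, 91.6, 174 and 445 CPM in PMMA bone and at 0.294, 0.211, 27.0 and 309 CPM in BNED. IM held 0.729, 1.37, 43.9 and 71.3 CPM and PFNU 0.130, 4.91, 0.270 and 0.654 CPM.

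Both genes were higher in PMMA bone than in BNED in 4 of 4 rats, but with errors too wide for a call. On the log2 scale the difference was 1.76 for Col2a1, with an SE of 1.67 and an adjusted p of 0.540, and 1.15 for Col9a1, with an SE of 1.71 and an adjusted p of 0.710. Limma-voom, which gives noisy libraries less weight, called them at 4.88 (adjusted p = 0.0205) and 5.21 (adjusted p = 0.00799), in a fit that called 48.6% of all genes. In IM against PFNU the values were 4.42 (SE 1.87, adjusted p = 0.272) and 4.28 (adjusted p = 0.310), and DESeq2 called Col2a1 (adjusted p = 0.0480). PFNU against BNED was called lower for Col2a1, at -5.35 (SE 1.95) with an adjusted p of 0.0497, and for Col9a1, at -5.81 (SE 2.09) with an adjusted p of 0.0476. Those calls were lost with the rat as a block (adjusted p = 0.360 and 0.340), in limma-voom and with only the libraries compared, and that of Col2a1 also with no filter on low counts. Each was kept in 3 of 8 fits that left out a library: not without PFNU of rat 1, 3 or 4 or BNED of rat 3 or 4. Without BNED of rat 4 the values were -2.16 and -2.60.

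Col9a1 followed Col2a1 closely. Its counts were 0.0155 to 0.0614 per count of Col2a1 in all 16 libraries, a span of 3.95-fold, with the lowest ratio in BNED of rat 2, on 18 counts of Col9a1, and the highest in BNED of rat 3, on 1334. Col9a2, another chain of collagen IX, did not keep to it. In PMMA bone it had 0.521 to 0.822 counts per count of Col9a1, but up to 16.2 in IM and up to 37.4 in PFNU, in libraries where Col9a1 was under 1.00 CPM. The window at the start of Col9a1 (RefSeq, GRCr8) is shown beside the windows above. Like that of Col15a1, it holds neither a GC box nor a CCAAT box. It has 0 CpG dinucleotides, where Col15a1 has 6, Col18a1 18 and Col4a1 38, the most of any collagen window.
Col9a1, chr9:34081114-34081413, plus strand: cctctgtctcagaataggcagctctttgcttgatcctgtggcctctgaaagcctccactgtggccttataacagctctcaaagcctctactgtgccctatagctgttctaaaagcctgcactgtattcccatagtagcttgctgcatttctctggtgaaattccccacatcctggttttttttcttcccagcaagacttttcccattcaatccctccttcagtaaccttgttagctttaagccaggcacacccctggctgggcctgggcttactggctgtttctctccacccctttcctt
The windows of Col11a1 and Col11a2 each held 3 GC boxes. ACAAAG and ACAATG, words bound by SOX proteins, were searched on both strands and found in 2 of the 21 windows, those of Col6a4 and Col17a1, against 29.1% of all windows.

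**Figure D4:**
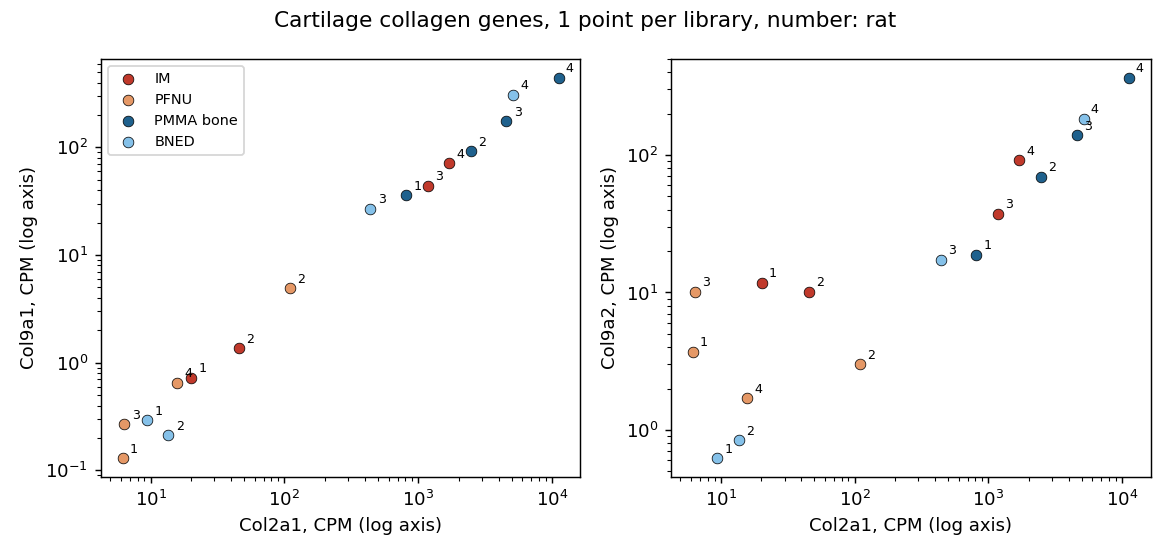
CPM of Col9a1 and of Col9a2 against CPM of Col2a1 on log axes, with 1 point per library and the rat as a number. Col9a1 lay along a line with Col2a1 over the whole range, from 6.17 to 11186 CPM, while Col9a2 left that line most clearly in IM of rats 1 and 2 and in PFNU of rats 1 and 3.

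The chondrocyte markers other than collagens (9 of 12 measured) took 0.0384 to 0.257% of counts in PMMA bone, 0.00344 to 0.135% in BNED, 0.0292 to 0.100% in IM and 0.00624 to 0.0188% in PFNU. The genes of that list named here were chosen after their values were seen. Chad, Hapln1 and Lect1, matrix proteins of cartilage, were highest in rats 3 and 4 of IM and BNED, as Col2a1 was. Chad was at 2.17, 7.30, 48.7 and 96.1 CPM in IM and at 2.77, 3.34, 23.5 and 223 CPM in BNED. The proteoglycan Acan and the matrix protein Comp had their highest IM library in rat 1, at 474 and 491 CPM, where Col2a1 was at 20.2 CPM. Matn1, a cartilage matrilin, was at most 0.166 CPM in any library. The part of chondrocytes in these differences was not tested.

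Collagen XI chains were present in bone as well as with the cartilage genes. Col11a1 was at 1726, 1838, 2079 and 2851 CPM in PMMA bone and at 1033, 489, 1769 and 1739 CPM in BNED, with the lowest levels in BNED of rats 1 and 2, as for Col2a1, but within 3.61-fold of the highest. In defect tissue it was at 1229, 374, 1206 and 219 CPM in IM and at 324, 296, 921 and 311 CPM in PFNU. No comparison of Col11a1 was called in edgeR with all 16 libraries and no block. The lowest adjusted p was 0.0629, for PFNU against BNED (log2 fold change -1.44, SE 0.56). This fall was called with the rat as a block (adjusted p = 0.0430) and with only the libraries compared (0.0435). It was also called without PFNU of rat 3 (0.0196) or BNED of rat 2 (0.0333). DESeq2 (adjusted p = 0.0232) and limma-voom (0.00178) called it among 34.1 and 52.3% of all genes. Against PMMA bone, IM had a value of -1.49 (SE 0.56, adjusted p = 0.0686). That was called with the block (0.0348), without IM of rat 1 (0.0338) and in DESeq2 (0.0228).

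Col11a2 was called lower in both defect tissues than in the bone of the same side. It was at 18.6, 54.4, 583 and 192 CPM in IM and at 794, 1080, 1526 and 1849 CPM in PMMA bone. PFNU held 30.4, 86.8, 184 and 122 CPM and BNED 551, 300, 941 and 843 CPM. Neither pair of groups overlapped, and the log2 fold change was -2.63 in IM (SE 0.81, adjusted p = 0.0319) and in PFNU -2.64 (SE 0.81, adjusted p = 0.0244). These calls were kept in 4 and 3 of 8 fits that left out a library. The first was lost without IM of rat 2 or 4 or PMMA bone of rat 3 or 4, and the second without PFNU of rat 1, 2 or 4 or BNED of rat 3 or 4, with adjusted p of at most 0.0718 and 0.0658. The first was also lost with only the libraries of IM and PMMA bone. Counts of Col11a2 per count of Col11a1 were 0.460 to 0.734 in PMMA bone and 0.485 to 0.614 in BNED, but 0.0151 to 0.878 in IM, where rat 1 had the lowest and rat 4 the highest ratio.

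Col13a1, a transmembrane collagen of cell contacts, was highest in bone. PMMA bone held 110, 112, 148 and 150 CPM and BNED 59.7, 43.6, 102 and 75.1 CPM, without overlap and without a call (log2 fold change 0.89, SE 0.82, adjusted p = 0.529). In IM it was at 1.32, 4.42, 58.3 and 5.98 CPM and in PFNU at 6.21, 9.54, 36.7 and 19.7 CPM. Col13a1 fell in IM against PMMA bone (-2.89, SE 0.88, adjusted p = 0.0295), with a block adjusted p of 0.00294. That call was kept in 3 of 8 fits that left out a library, and lost without IM of rat 2 or 4 or PMMA bone of rat 1, 3 or 4, with an adjusted p of at most 0.0747. It was also lost with only the libraries of IM and PMMA bone. PFNU against BNED was not called (-1.96, SE 0.85, adjusted p = 0.0910), though it was with the block (0.0160). IM of rat 3, the high library, also had the most Dmp1 (1059 CPM) and Sp7 (33.8 CPM) of the IM libraries, which are an osteocyte and an osteoblast gene chosen after their values were seen. Their part in the Col13a1 level was not tested.

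Across the comparison of empty-defect tissue with its bone, 10 collagen genes rose and 3 fell. These are 38.5 and 11.5% of the 26, where 15.0 and 15.2% of all genes were called higher and lower, or 30.2% either way. The groups did not overlap for 12 collagen genes, where 39.9% of all genes did not. Besides those described, the basement membrane chain Col4a4 was called higher (log2 fold change 1.78, SE 0.64, adjusted p = 0.0469). It was at 0.433, 0.409, 0.374 and 0.654 CPM in PFNU, on 20, 21, 18 and 28 counts. BNED held 0.0865, 0.246, 0.0607 and 0.131 CPM, on 5, 21, 3 and 6 counts. Col4a4 kept that call only without BNED of rat 2 among the 8 fits. The call was also lost with scaling without collagen, muscle and erythroid genes and with no filter on low counts. Leaving out PFNU of rat 1, BNED of rat 3 or BNED of rat 4 left 7, 6 and 7 collagen calls. Those fits called 24.3, 20.7 and 21.3% of all genes. IM against PMMA bone had 2 genes called higher (Col14a1 and Col5a3) and 2 lower (Col11a2 and Col13a1), or 7.69% each way, against 11.3 and 11.0% of all genes. The groups did not overlap for 7 collagen genes, where 19.5% of all genes did not. Without IM of rat 2 or PMMA bone of rat 3 or 4 there were 2 calls, and without IM of rat 1 there were 7. In that order, these fits called 22.5, 14.7, 14.6 and 31.2% of all genes. The comparisons share libraries with those of spacer and empty defect, so their values are not independent of each other.

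Low levels limited 5 members, Col4a3, Col4a4, Col6a4, Col23a1 and Col26a1, none of which exceeded 5.28 CPM in any library. Col4a3 and Col4a4, chains of kidney and lung basement membranes, start side by side on opposite strands in RefSeq and point away from each other. Of the 6 genes with a negative value in IM against PFNU, 4 were among these low members, and the most negative values were those of Col23a1, -1.26 (SE 0.80) with an adjusted p of 0.487, and Col26a1, -0.93 (SE 0.56) with an adjusted p of 0.455. Col6a4 and Col26a1 were the 2 genes with a negative value in PMMA bone against BNED, at -0.36 and -0.77 (adjusted p = 0.748 and 0.398). The epithelial transmembrane collagen Col17a1 was at 3.31 to 4.65 CPM in PMMA bone and at 3.46 to 3.65 CPM in BNED, and reached 13.1 CPM in IM of rat 1 and 12.8 CPM in PFNU of rat 3.

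**Figure D5:**
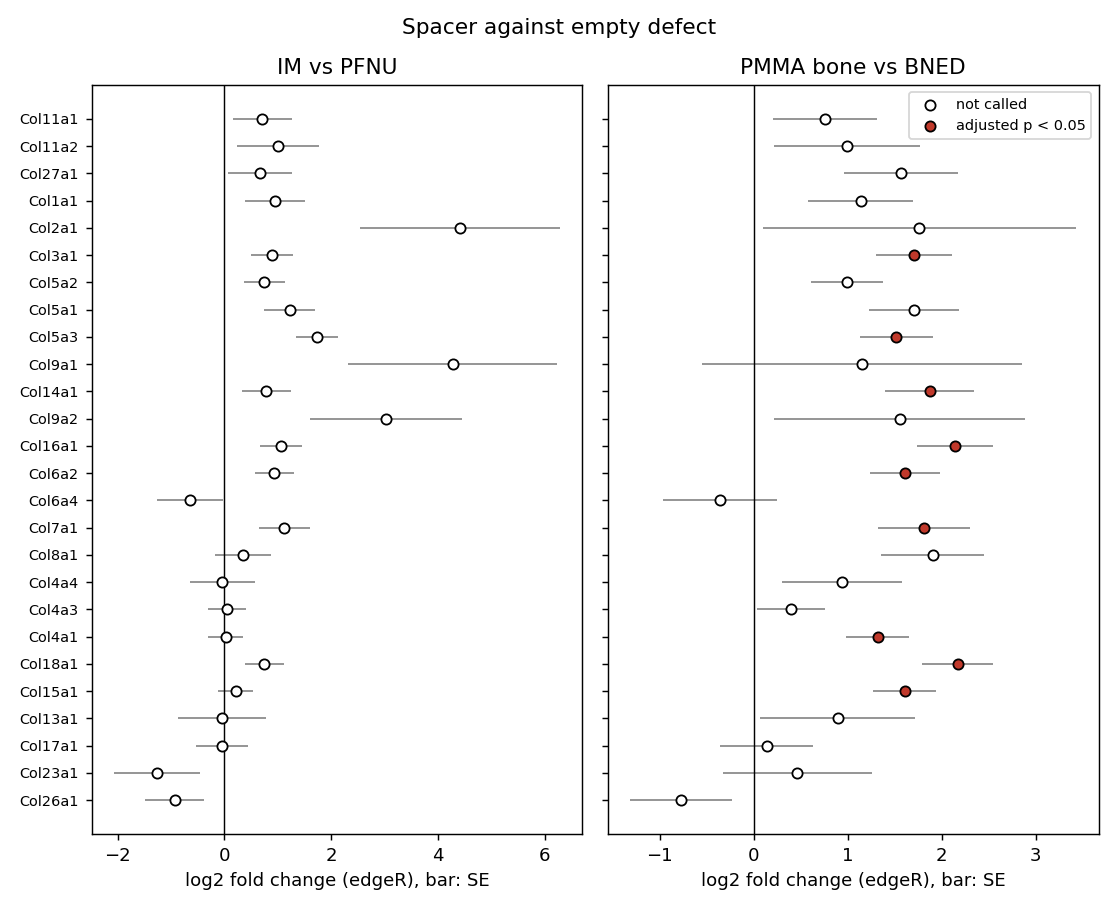
Log2 fold change (point) and SE (bar) of the 26 collagen genes in IM against PFNU and in PMMA bone against BNED, from the edgeR fit of all 16 libraries, with filled points for an adjusted p under 0.05 and different x axes. In bone 9 genes are called and 24 lie above 0; in the defect none is called and 20 lie above 0.

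Genes that make and finish collagen also rose in bone next to the spacer. Of 33 measured genes on a list of 45 for hydroxylation, folding, secretion, propeptide removal and crosslinking, 10 rose in PMMA bone over BNED and none fell, where 3.51% of all genes were called higher; the median was 1.10. Loxl2, a crosslinking enzyme, was at 54.4, 129, 91.0 and 125 CPM against 26.1, 32.2, 35.3 and 36.1 CPM (log2 fold change 1.62, SE 0.33, adjusted p = 0.0228). Serpinh1, the collagen chaperone, was at 1034, 1825, 2145 and 1868 CPM against 633, 487, 812 and 736 CPM (1.36, SE 0.30, adjusted p = 0.0263). Neither pair overlapped. Also called were the propeptide protease gene Tll1 (1.78, adjusted p = 0.0230), the prolyl hydroxylase gene P4ha2 (1.40, adjusted p = 0.0230), the lysyl hydroxylase gene Plod1 (1.24, adjusted p = 0.0313) and the prolyl 3-hydroxylase family gene Leprel2 (1.31, adjusted p = 0.0338). The remaining 4 were Pcolce, Plod3, Leprel4 and P4ha3. As for the chains, 0 were called in the 5 fits without PMMA bone of rat 2, 3 or 4 or BNED of rat 1 or 3, 3 without BNED of rat 2, 7 without BNED of rat 4, and 22 without PMMA bone of rat 1, where 19.9% of all genes were called. With the rat as a block, 6 were called.

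In IM over PFNU, 1 gene of that list rose, where 0.366% of all genes were called higher. Loxl1, a crosslinking enzyme best known from elastic fibres, was at 440, 391, 306 and 235 CPM in IM and at 194, 94.2, 150 and 98.4 CPM in PFNU, without overlap (log2 fold change 1.35, SE 0.28, adjusted p = 0.0349). The fits without IM of rat 3, IM of rat 4 and PFNU of rat 1 called 1, 3 and 1 genes of the list. They called 1.51, 1.88 and 0.826% of all genes. The other 5 fits that left out a library called none of the list. The fit with the rat as a block called none either. The median over the list was 0.66, against 0.01 over all genes tested, and 28 of the 33 values were positive, where 51.2% of all genes were. Of the collagen receptor genes (8 tested of 12 listed), 1 rose in PMMA bone, where 3.51% of all genes were called higher. This was Itga11, an integrin chain of fibroblasts that binds fibrillar collagen. It was at 140, 278, 270 and 189 CPM against 76.5, 69.4, 87.7 and 77.3 CPM in BNED (1.49, SE 0.39, adjusted p = 0.0399), a call kept only without PMMA bone of rat 1 among the 8 fits. None of the receptors was called between IM and PFNU. Fibroblast markers without collagens (10 of 10, none at 0) took 0.666 to 1.09% of counts in PMMA bone against 0.395 to 0.494% in BNED, and 0.460 to 1.74% in IM against 0.431 to 0.874% in PFNU, and their part in these results was not tested.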

How the data were processed

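RNA from 16 tissue samples was sequenced as stranded poly-A libraries, per the labels' protocols, with 12 PCR cycles and 100 paired-end cycles. The authors deposited raw counts per gene, and per the submitters' processing notes the build was rn5 and the tools included TopHat2 2.0.13, Bowtie2 2.2.1, FastQC 0.11.3 and DESeq2; the counting program, annotation and strand setting are not given in the sources used here. Total counts were 40472228 to 76815879 per library. The labels describe no molecular identifiers, so PCR copies count as reads and precision rests on the spread between rats.

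The deposited counts of all 16 libraries were fitted in edgeR 4.0.16 (R 4.3.3, limma 3.58.1) with 4 group means, TMM scaling and filterByExpr, which left 12857 genes. Comparisons used the quasi-likelihood F-test with Benjamini-Hochberg adjustment over all genes tested, and SE is the log2 fold change divided by the square root of F. Count ratios were tested by exact two-sided permutation. Alternatives were other size factors, scaling without collagen, muscle and erythroid genes, no filter, DESeq2 1.42.0, limma-voom with quality weights, only the libraries compared, the rat as a block, and each library left out. The code was tested on simulated data.

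Same-numbered libraries come from 1 rat, per the labels, so the numbers pair the samples. Correlations of their deviations from the group means were -0.134 to 0.647 for IM and PFNU and -0.0863 to 0.573 for PMMA bone and BNED. They were -0.196 to 0.307 for IM and PMMA bone and -0.398 to 0.544 for PFNU and BNED. Between libraries of different rats the ranges were, in the same order, -0.712 to 0.619, -0.440 to 0.269, -0.214 to 0.226 and -0.568 to 0.474.

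The members and lists were chosen with earlier results of these data known. Per-library values are given for a panel of chains and for members called in a spacer comparison, and, for tissue against bone, for the called members with the 5 largest fold changes each way. For the synthesis and receptor lists, at most 6 called genes per list and comparison are named, lowest p first; other names were chosen after their values were seen. Promoter windows came from RefSeq (GRCr8), where 21 of the 26 members matched.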

Additional observations from a re-analysis of the deposited data

Results flagged for a closer look

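In 13 of the 104 combinations of a collagen gene and a tissue, 1 library stood apart from the other 3 by Dixon's criterion. It was computed on CPM, and in each case the library that stood apart was the highest. The criterion flags about 1 in 20 groups of normally distributed values. CPM on a linear scale need not be so distributed, so the 13 were not set against a rate by chance. The cartilage chains gave 6 of the 13 combinations. Col2a1 was at 5149 CPM in BNED of rat 4 (others 9.44 to 439) and at 109 CPM in PFNU of rat 2 (others 6.17 to 15.7). Col9a1 stood apart in the same libraries, at 309 CPM in BNED of rat 4 and 4.91 CPM in PFNU of rat 2, and Col9a2 was at 183 CPM in BNED of rat 4. Col11a1 was at 921 CPM in PFNU of rat 3 (others 296 to 324).

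Among the other chains, Col18a1 was at 1089 CPM in IM of rat 1 (others 589 to 626), Col13a1 at 58.3 CPM in IM of rat 3 (others 1.32 to 5.98), Col5a1 at 403 CPM in BNED of rat 3 (others 293 to 311) and Col8a1 at 22.4 CPM in BNED of rat 2 (others 11.5 to 12.5). Among the low members, Col23a1 stood apart at 5.23 CPM and Col4a4 at 0.628 CPM, both in PMMA bone of rat 2, as did Col6a4 at 4.43 CPM in IM of rat 1.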

How the results depend on the processing

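In PMMA bone against BNED, where edgeR called 9 collagen genes, the count was 8 with other size factors, with scaling without collagen, muscle and erythroid genes and with no filter, 11 in DESeq2, 13 with only the libraries compared and 17 in limma-voom; the last 3 called 11.6, 14.1 and 48.6% of all genes, against 4.91% in edgeR. With each library left out in turn the count was 0 to 11. In IM against PFNU the count was 0, but 2 in DESeq2, which called 4.14% of all genes. It was 0 to 1 with a library left out. In the interaction the count was 0, but 2 in limma-voom, which called 1.70% of all genes there. In IM against PMMA bone it was 4, with 22.2% of all genes called. It was 7 in DESeq2 and 1 with only the libraries compared, fits that called 26.5 and 7.23% of all genes. With a library left out it was 2 to 7, where 14.0 to 31.2% of all genes were called. In PFNU against BNED it was 13, with 30.2% of all genes called. It was also 13 under other size factors, 12 under scaling without those lists and 11 with no filter. These fits called 30.1, 30.0 and 25.9% of all genes. DESeq2 gave 17, limma-voom 17 and only the libraries compared 15, at 34.1, 52.3 and 43.7% of all genes. With a library left out it was 6 to 16, at 20.3 to 30.8% of all genes.

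With the rat as a block, the pairing left 0 collagen calls in IM against PFNU and in the interaction. It left 7 in PMMA bone against BNED (without Col3a1 and Col4a1), 5 in IM against PMMA bone and 12 in PFNU against BNED. Of all genes, 3.53, 21.6 and 29.0% were called there.

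Over all alternatives, 81 of 2131 collagen values changed sign, none with an adjusted p under 0.05 in either fit. Among those described, IM against PFNU ranged with a library left out from -0.20 to 0.38 for Col15a1, -0.27 to 0.19 for Col4a1 and -0.33 to 0.69 for Col8a1, each lowest without IM of rat 1, and from -0.26 (without IM of rat 3) to 1.41 for Col11a2. Col4a1 was also negative without PFNU of rat 4. The log2 difference of the Col3a1 to Col1a1 ratio ranged from -0.12 to 0.53 in IM against PFNU (-0.12 without IM of rat 4, -0.078 without PFNU of rat 3), 0.19 to 0.83 in PMMA bone against BNED, 2.23 to 2.88 in IM against PMMA bone and 2.54 to 3.18 in PFNU against BNED; the cause was not tested. A planned ratio of Col1a1 to Col1a2 was not run, since Col1a2 is not analysed here. With 4 rats a group, single-gene errors rest on few libraries, and the 5 lowest members are limited by depth.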
